A study of Mus musculus with 27 samples.

Results

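The later response of mouse macrophages to imidazole propionate (ImP) was set against that of mouse fibroblasts, gene by gene, as a difference of differences: the log2 change from unstimulated cells to cells given ImP for 2 h in macrophages, minus the same change in fibroblasts. The libraries were bulk RNA sequencing of cultured cells, 3 in each group. Unstimulated bone marrow derived macrophages (BMDMs) were M13, M17 and M21, and BMDMs labelled 2 h with ImP at 10 µg/mL were M15, M19 and M22. Unstimulated mouse embryonic fibroblasts (MEFs) were F25, F29 and F33, and MEFs labelled 2 h with ImP at 10 µg/mL were F27, F31 and F35. The contrast was selected on measured values: it takes M23, labelled 1 h, as a 2 h library in place of M22, because of the inflammatory genes of these 2 libraries, and so uses 12 of the 27 libraries. The labels put M22 at 2 h and M23 at 1 h, and the deposited tables of each group do the same. Results are therefore given in 3 readings: with the libraries as labelled, with M22 and M23 left out, and with M22 and M23 exchanged. The exchanged reading follows an inferred label and is described without a test. The reading without the pair drops libraries on their values, which makes its p-values too small.

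No genotype, strain, animal or culture is named for a library, and no vehicle group at 2 h. Replicates may be technical, p-values measure only the spread between these samples, and a change with ImP shares its comparison with a change over time in culture. Cells of both types were plated at equal numbers and rested overnight before treatment, and their libraries were made with the same directional kit. In bulk RNA a change in the share of a cell type and a change in RNA per cell cannot be told apart.

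ImP is a product of histidine breakdown by gut bacteria, and the series concerns the transcription it sets off in cells of interest for atherosclerosis. Transforming growth factor beta (TGF-beta) and bone morphogenetic proteins (BMPs) are secreted ligands that bind receptor kinases. These phosphorylate SMAD proteins, which enter the nucleus with SMAD4 and bind DNA. Genes of the Id family, which encode helix-loop-helix proteins that block the DNA binding of other transcription factors, are known direct targets. So are the inhibitory SMADs, Smad6 and Smad7, and the SMAD repressor gene Skil, whose products feed back on the pathway.

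The genes that passed the test of the difference of differences were Id3 and Smad6. The promoters of these genes and of Id2, which did not pass, are shown. All 3 genes were higher in each macrophage library given ImP than in each unstimulated one. So were Id1, Skil and Smad7, whose promoters are not shown, those of Id1 and Skil because their windows were not available. The share of all genes so separated was not counted, and genes of other lists were separated as well, so this is weak support. The sequences are the 250 bases before the RefSeq start site, read 5′ to 3′ on the strand of the gene in the GRCm38.p6 assembly. Id3 lies at chr4:136143572-136143821 on the plus strand, Smad6 at chr9:64022060-64022309 on the minus strand and Id2 at chr12:25096093-25096342 on the minus strand. Capitals mark GGCGCC, a GC-rich site known for BMP SMADs.
Id3: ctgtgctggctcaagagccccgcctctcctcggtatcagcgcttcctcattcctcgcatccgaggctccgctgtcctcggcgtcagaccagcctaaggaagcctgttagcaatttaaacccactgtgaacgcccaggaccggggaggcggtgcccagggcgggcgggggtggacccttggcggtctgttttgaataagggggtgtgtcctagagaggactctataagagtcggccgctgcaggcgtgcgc
Smad6: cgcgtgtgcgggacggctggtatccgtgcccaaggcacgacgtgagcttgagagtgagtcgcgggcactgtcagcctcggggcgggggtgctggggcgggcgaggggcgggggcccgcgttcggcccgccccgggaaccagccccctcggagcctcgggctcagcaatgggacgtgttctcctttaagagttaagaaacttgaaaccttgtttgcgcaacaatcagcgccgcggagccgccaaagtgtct
Id2: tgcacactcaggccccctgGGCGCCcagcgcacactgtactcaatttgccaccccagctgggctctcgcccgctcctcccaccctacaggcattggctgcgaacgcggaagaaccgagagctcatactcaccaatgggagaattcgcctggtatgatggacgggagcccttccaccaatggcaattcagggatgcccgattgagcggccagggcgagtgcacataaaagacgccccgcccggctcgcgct
GGCGCC stood 231 bases before the start of Id2 and in neither of the other two windows. Of 32851 RefSeq promoter windows of 250 bases, 9.59% held it on either strand. The SMAD palindrome GTCTAGAC (0.167% of windows), the E-box CACGTG (6.02%) and the cAMP response element TGACGTCA (1.55%) were searched on both strands as well and were in none of the 3 windows. None of these motifs contains another. These are matches of letters and not measured sites. In GENCODE M21 on GRCm38, Id3 spans chromosome 4 from 136143497 to 136145755, Smad6 chromosome 9 from 63953076 to 64022059 and Id2 chromosome 12 from 25093799 to 25097140. The Id3 and Id2 windows, and so the GGCGCC match, thus lie inside these annotated gene spans, and the Smad6 window borders its span. No gene of the opposite strand overlaps these 3 genes, which matters because the strand of counting is not stated.

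The macrophage libraries M22 and M23 differed from the other libraries with the same label in inflammatory genes. Levels are given as CPM, counts relative to the library's total, scaled by TMM, a correction for library composition, in a model of all libraries. The NF-kB inhibitor gene Nfkbia, a known target of NF-kB, was at 46.4, 42.2 and 42.5 CPM in M13, M17 and M21. It was at 261 and 251 CPM in M14 and M18, both labelled 1 h, and at 52.1 and 42.6 CPM in M15 and M19, both labelled 2 h. M23, labelled 1 h, had 47.3 CPM, and M22, labelled 2 h, had 270 CPM. The inflammatory cytokine gene Tnf was at 264 and 257 CPM in M14 and M18, at 16.6 and 21.4 CPM in M15 and M19, at 21.1 CPM in M23 and at 310 CPM in M22. Il1b, which encodes interleukin-1 beta, was at 123, 118, 2.14, 3.45, 1.1 and 130 CPM in the same order. In all 3 genes M22 lay with M14 and M18, and M23 lay far below them. For Il1b M23 was below M15 and M19 (33 counts against 58 and 85) and near M13, M17 and M21 (42, 55 and 31 counts). Tnf had 480, 487 and 460 counts in M13, M17 and M21, against 451 and 528 in M15 and M19. Nfkbia and Tnf thus did not separate M15 and M19 from the unstimulated libraries, and the 3 genes set M23 apart from 1 h without placing it at 2 h. Over 41 detected genes of an NF-kB and inflammatory list, M22 was nearer to M14 and M18 than to M15 and M19 in 41, and M23 was nearer to M15 and M19 in 34. Over all 11653 genes compared, the shares were 55.8% and 57.2%. The pair was singled out on inflammatory genes, so the count over that list is no independent support. In other lists the counts were 31 and 31 of 36 immediate early genes, 15 and 12 of 18 TGF-beta and BMP targets, and 14 and 21 of 29 interferon-stimulated genes.

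**Figure D1:**
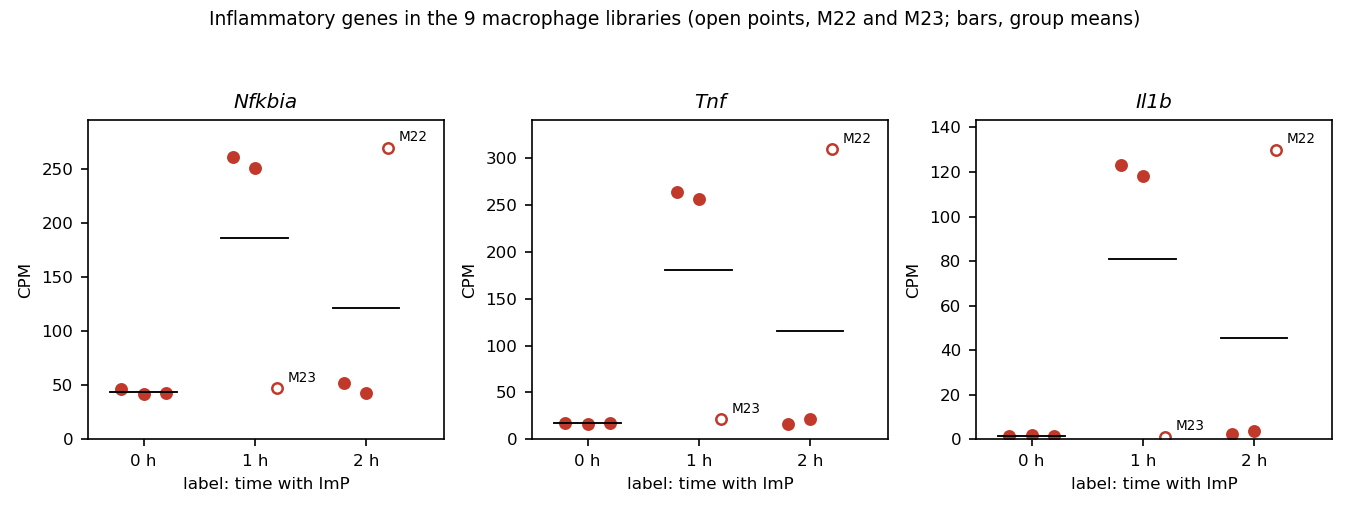
CPM of Nfkbia, Tnf and Il1b in the 9 macrophage libraries by labelled time with ImP; each point is 1 library, bars are group means and open points are M22 and M23. M22 lies with M14 and M18 (261 and 251 CPM for Nfkbia, 270 in M22). M23 (47.3 CPM for Nfkbia) lies far below them, near both the unstimulated libraries and M15 and M19, which this gene does not separate.

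Only 2 genes passed the difference of differences as labelled, both more positive in macrophages, Id3 and Smad6. They were 2 of 17038 genes tested (0.0117%), by edgeR's quasi-likelihood test in 1 model of all 27 libraries with a Benjamini-Hochberg adjusted p under 0.05. In all, 372 genes had an unadjusted p under 0.05. Without M22 and M23, Id3 and Smad6 again passed, 2 of 17582 genes (0.0114%), with 367 genes at an unadjusted p under 0.05. On the macrophage side of the contrast, Id3, Smad6 and Skil were called as labelled (3 genes, 0.0176%) and Id3 and Smad6 without the pair (2 genes, 0.0114%), all higher with ImP. In fibroblasts edgeR called 0 of 17582 genes (0%) at 2 h. DESeq2 called 5 there, 3 of them higher, in the fit without M22 and M23, and 3, 1 of them higher, in the fit as labelled. Limma-voom called 0 in both, and 291 genes had an unadjusted edgeR p under 0.05 in the fit without the pair. With M22 and M23 exchanged, 2839 of 17038 genes (16.7%) had an absolute log2 difference of at least 1. Many of these had few counts: of 13017 genes that averaged 1 CPM or more in a cell type, 804 (6.18%) were past 1, 444 of them positive and 360 negative.

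**Figure D2:**
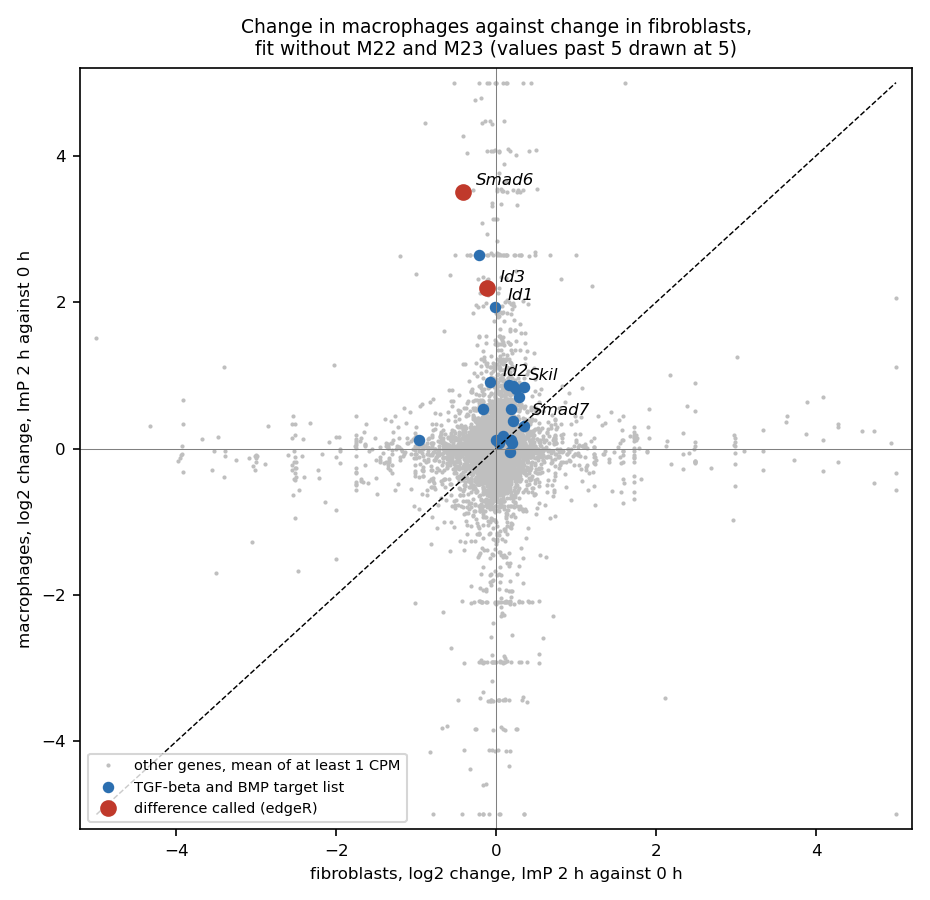
Log2 change at 2 h in fibroblasts (x axis) and in macrophages (y axis) in the fit without M22 and M23, for genes that average 1 CPM or more in a cell type; blue points are the TGF-beta and BMP target list, red points are genes whose difference passed edgeR, and the dashed line marks equal change. Smad6 (3.51 in macrophages, -0.41 in fibroblasts) and Id3 (2.19 and -0.12) lie above the line; arms along each axis hold genes with few counts in 1 cell type.

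Id3 rose from a low level in unstimulated macrophages towards that of the fibroblasts, where its change did not pass. M15, M19 and M23 stayed below each fibroblast library compared, and M22 lay within the fibroblast range. In M13, M17 and M21 it was at 10.4, 9.72 and 8.34 CPM. It was at 47.7, 39.2 and 69.8 CPM in M15, M19 and M22, and at 42.3 CPM in M23. Each macrophage library given ImP lay above each unstimulated one. In fibroblasts Id3 was at 69.1, 56.2 and 67.9 CPM unstimulated and at 52.5, 54.5 and 70.6 CPM at 2 h, and these groups overlapped. Unstimulated fibroblasts held 6.79 times the level of unstimulated macrophages. As labelled, Id3 rose by 2.46 on the log2 scale in macrophages (SE 0.227, edgeR adjusted p = 1.52e-06), and the fibroblast value was -0.12 (SE 0.206, adjusted p = 1). The difference of differences was 2.58 (SE 0.304, edgeR adjusted p = 0.000177). Without M22 and M23 it was 2.31 (SE 0.242, 95% interval 1.81 to 2.81, edgeR adjusted p = 2.84e-05), and with the pair exchanged it was 2.30 (SE 0.222), with no test. The as-labelled call was lost in a fit without the libraries labelled aortic endothelial (MAECs) (2.59, edgeR adjusted p = 0.069).

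Smad6, the inhibitory SMAD known mainly for BMP signalling, had the larger difference on far fewer counts. It was at 0.59, 0.436 and 0.689 CPM in M13, M17 and M21, from 16, 13 and 18 counts. In M15 and M19 it was at 7.37 and 5.68 CPM (200 and 140 counts), in M23 at 5.59 CPM (167 counts) and in M22 at 1.83 CPM (49 counts). The 4 libraries all lay above the unstimulated ones, and M22 was the lowest of them. In fibroblasts it was at 1.67, 2.00 and 2.31 CPM unstimulated and at 1.68, 0.979 and 1.82 CPM at 2 h, with overlap. As labelled, Smad6 rose by 3.12 in macrophages (SE 0.451, edgeR adjusted p = 0.00261) and had a value of -0.41 in fibroblasts (SE 0.401, adjusted p = 1). The difference of differences was 3.53 (SE 0.602, edgeR adjusted p = 0.0351). Leaving out any library of the 4 groups other than M22 ended that call (edgeR adjusted p 0.0569 to 0.281), at values between 3.12 and 3.69. Without M22 and M23 the difference was 3.92 (SE 0.489, 95% interval 2.91 to 4.94, edgeR adjusted p = 3.42e-04), and with the pair exchanged it was 3.86 (SE 0.473). Limma-voom did not call it in either tested reading.

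Id3 and Smad6 differed in which ImP libraries were highest. Id3 was at 75 and 72.1 CPM in M14 and M18 and at 69.8 CPM in M22, above M15, M19 and M23. Smad6 was at 2.98 and 2.92 CPM in M14 and M18 and at 1.83 CPM in M22, below M15, M19 and M23. In both genes M22 was thus nearer to M14 and M18, and M23 nearer to M15 and M19. Of 18 detected TGF-beta and BMP targets this held for M22 in 83.3% and for M23 in 66.7%. Over all genes compared the shares were 55.8% and 57.2%. Which label is right was not tested. As labelled, the macrophage mean of Id3 was 52.2 ± 15.8 CPM at 2 h (SD, n = 3), and over M15, M19 and M23 it was 43.1 ± 4.31 CPM, 4.54 times the unstimulated mean of 9.48 ± 1.04 CPM. For Smad6 the same means were 4.96 ± 2.84 and 6.21 ± 1.00 CPM, the latter 10.9 times the unstimulated mean of 0.571 ± 0.128 CPM. In fibroblasts the ratio of 2 h to unstimulated means was 0.919 for Id3 and 0.749 for Smad6.

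Id1, Id2 and the feedback genes Skil and Smad7 had higher levels in each macrophage library given ImP than in each unstimulated one, but their differences from fibroblasts did not pass. On the macrophage side Id1 and Id2 did not pass either (edgeR adjusted p = 0.154 and 0.508 as labelled, 0.184 and 1 without the pair). Genes of other lists, such as Rictor, Insig1 and Srebf2, also lay above the unstimulated macrophages in M15, M19, M22 and M23. The share of all genes that did so was not counted, so such separation alone is weak support. Id4 had at most 2 counts in any macrophage library, with overlap between groups. Id1, an inhibitor of differentiation known as a BMP target, was at 2.43, 0.938 and 2.11 CPM in unstimulated macrophages, at 7.99, 5.84 and 5.71 CPM in M15, M19 and M22, and at 8.6 CPM in M23. Unstimulated fibroblasts had 16.8, 12.7 and 16.7 CPM, and fibroblasts given ImP 11.8, 12.7 and 21.2 CPM. The macrophage groups did not overlap and the fibroblast groups did. The difference of differences was 1.86 as labelled (SE 0.473, edgeR adjusted p = 0.978), 1.95 without the pair (SE 0.474, edgeR adjusted p = 1) and 2.07 exchanged (SE 0.436).

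Id2, whose product also restrains helix-loop-helix factors, was at 108, 106 and 105 CPM in unstimulated macrophages. It was at 208, 190 and 214 CPM in M15, M19 and M22 and at 209 CPM in M23, with no overlap. Fibroblasts had 40.2, 25 and 38.2 CPM, then 26.8, 28.1 and 42.4 CPM. The difference was 1.03 (SE 0.317), 0.99 (SE 0.349) and 1.02 (SE 0.315) in the 3 readings, with an edgeR adjusted p of 1 in both tested ones. The 6 macrophage libraries given ImP for 1 or 2 h all lay between 190 and 217 CPM, and the exchange moved this gene by 0.01.

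Skil, whose product binds and represses SMADs and is a known TGF-beta target, was at 64.1, 77.7 and 82.9 CPM in unstimulated macrophages and at 140, 125 and 160 CPM in M15, M19 and M22. It was at 136 CPM in M23. Fibroblasts had 158, 157 and 160 CPM, then 197, 202 and 164 CPM, so in both cell types the ImP libraries lay above the unstimulated ones. Skil rose by 0.92 in macrophages as labelled (SE 0.151, edgeR adjusted p = 0.0137), while without M22 and M23 the value was 0.82 (SE 0.169, edgeR adjusted p = 0.219). The fibroblast value was 0.25 (SE 0.149), and the difference was 0.67 as labelled (SE 0.212, edgeR adjusted p = 1). Smad7, the inhibitory SMAD of both pathway branches, was at 4.9, 5.09 and 5.4 CPM in unstimulated macrophages, at 6.59, 10.2 and 9.1 CPM in M15, M19 and M22, and at 8.17 CPM in M23. Unstimulated fibroblasts had 29.7, 28.3 and 29.9 CPM, and fibroblasts given ImP 36.6, 36.3 and 34.4 CPM. Its groups, too, did not overlap in either cell type, and its difference was 0.46 (SE 0.262, edgeR adjusted p = 1), 0.42 (SE 0.286) and 0.41 (SE 0.257).

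**Figure D3:**
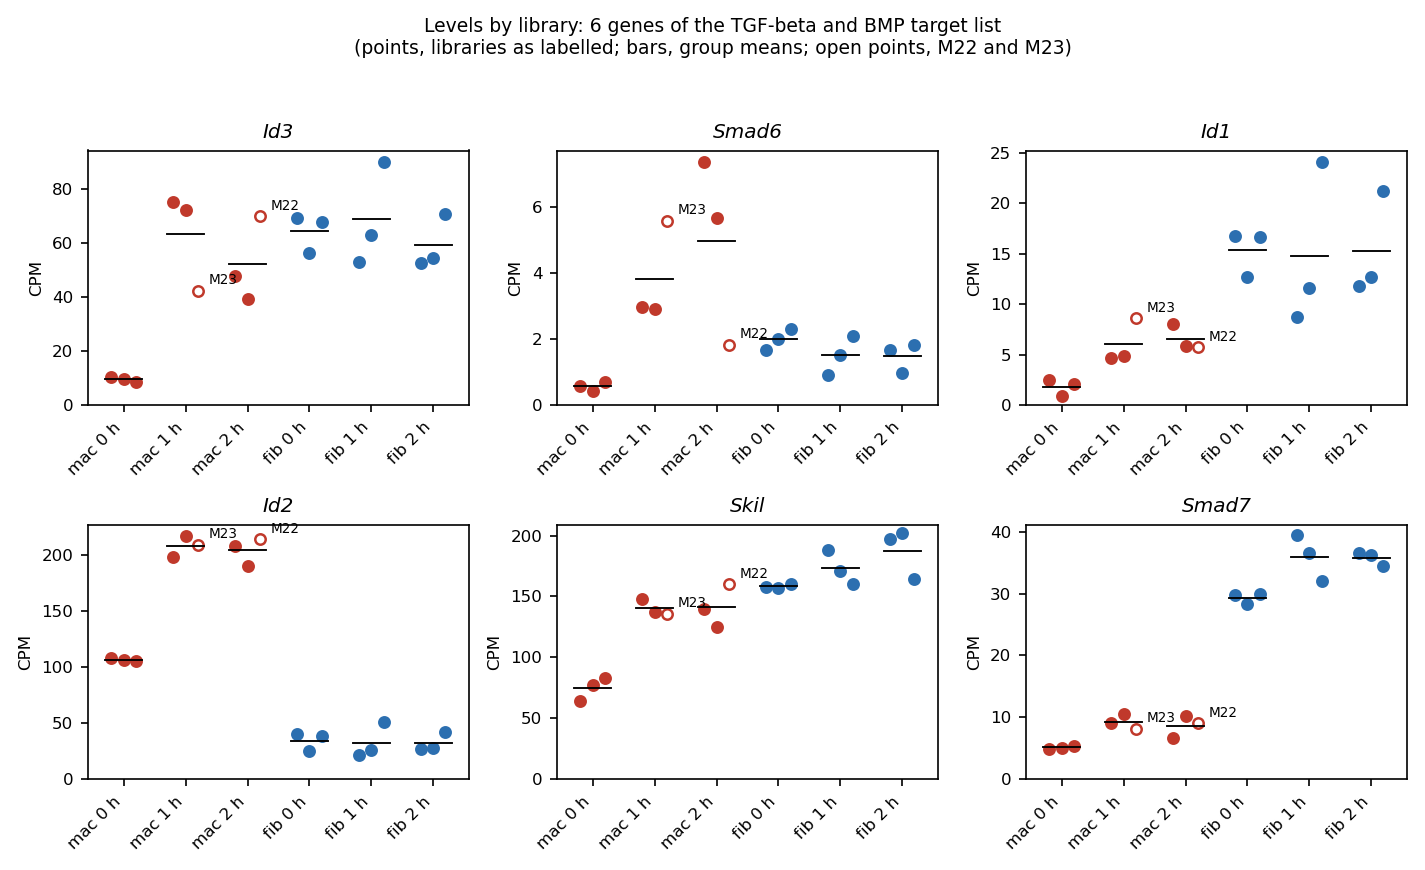
CPM of 6 genes of the target list in the 18 macrophage (red) and fibroblast (blue) libraries by labelled time with ImP; each point is 1 library, bars are group means, and open points are M22 and M23. In macrophages all ImP libraries lie above the unstimulated ones for each gene, and for Id3 the fibroblast levels (52.5 to 70.6 CPM at 2 h) stay near their unstimulated range. The share of all genes so separated in macrophages was not counted.

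All 26 genes of a TGF-beta and BMP target list were measured, and 2 passed the difference of differences in each tested reading, Id3 and Smad6. The median difference was 0.43 as labelled with 22 members positive, 0.46 without M22 and M23 with 20 positive, and 0.34 exchanged with 20 positive. Over all genes tested the medians were -0.01, -0.02 and -0.01, with 46.1%, 44.4% and 46.3% positive. With groups at or under 3 counts held at 3 counts, which touched 5 members, the list's medians were 0.28, 0.46 and 0.24. An unadjusted p under 0.05 was found for 5 members as labelled and 6 without the pair. In macrophages 23 members were positive in both tested readings, with medians of 0.35 and 0.47, and in fibroblasts 17 and 18 members, with medians of 0.16 and 0.17. Over all genes the macrophage medians were 0 in both tested readings, with 48% and 45% positive. The fibroblast medians over all genes were 0.01 and 0.02, with 54.3% and 54.5% positive.

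Within the list, Ltbp2, which encodes a matrix protein of the latent TGF-beta binding family, had a difference of 0.39 as labelled (SE 0.304) and 0.71 without the pair (SE 0.256, edgeR adjusted p = 1). It was at 1.81, 1.34 and 1.15 CPM in unstimulated macrophages, at 2.84 and 2.39 CPM in M15 and M19, at 1.08 CPM in M22 and at 1.67 CPM in M23. M22 was thus below each unstimulated library. The matricellular genes Ccn1 and Ccn2 were at 0.15 (SE 0.385) and 0.51 (SE 0.498) as labelled. Members near 0 were the ubiquitin ligase genes Smurf1 (-0.10, SE 0.180) and Smurf2 (0.00, SE 0.141), the corepressor gene Ski (0.04, SE 0.168) and the repressor gene Tgif1 (0.01, SE 0.153). The pseudoreceptor gene Bambi had -0.37 (SE 0.321). Nog was listed at 0 in all 9 macrophage libraries, and Msx1 and Msx2 were at 0 in the unstimulated macrophages, so their fitted values rest on few or no macrophage counts.

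**Figure D4:**
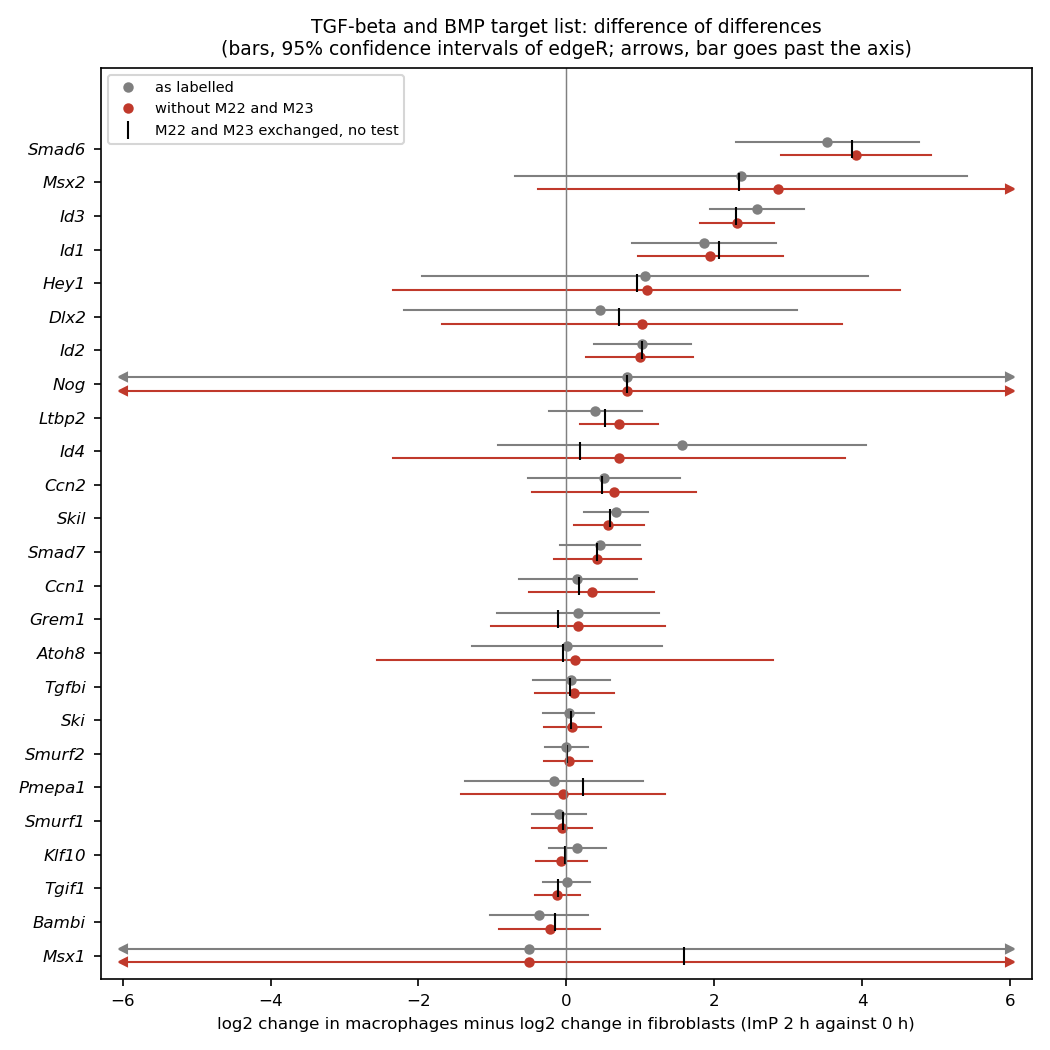
Log2 difference of differences (x axis) for genes of the target list (y axis), as labelled (grey) and without M22 and M23 (red) with edgeR 95% intervals, and exchanged (black ticks, no test). The intervals of Smad6, Id3, Id1, Id2 and Skil lie above 0 in both tested readings, without adjustment over genes, and those of Nog and Msx1 run past the axis.

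The upstream part of the pathway showed no called gene. Of 28 ligands, receptors and signal-transducing SMADs, 0 passed edgeR's difference of differences in either tested reading, and 1 and 2 had an unadjusted p under 0.05. The medians were -0.06, -0.07 and -0.06 in the 3 readings, with 11, 11 and 10 members positive. As labelled, values ran from -1.92 to 3.59, and 5 members were past an absolute value of 1, beside 2827 of all 17038 genes. Among them were Gdf15 (1.4, and 0.84 without the pair), Bmp6 (1.88 and 2.38) and Smad9 (1.15 and 0.85). Gdf15 had 2934 counts in M22 against 1195 and 1138 in M15 and M19. In macrophages Bmp6 had at most 1 count in a library and Smad9 at most 8. The type I receptor genes Acvr1 (-0.07, SE 0.172), Bmpr1a (-0.12, SE 0.205) and Tgfbr1 (0.17, SE 0.267) and the type II receptor genes Bmpr2 (-0.19, SE 0.216) and Tgfbr2 (-0.07, SE 0.166) had values within about 1 SE of 0 as labelled. So did Smad1 (-0.08, SE 0.162), Smad5 (0.11, SE 0.204), Smad2 (-0.08, SE 0.181), Smad3 (-0.12, SE 0.190) and Smad4 (0.05, SE 0.175), which carry the signal to the nucleus. The ligand gene Tgfb1 was at -0.11 (SE 0.209). Bmpr1b, a type I receptor gene, had -1.92 (SE 1.08) and -2.59 (SE 1.21) on levels of at most 0.737 CPM in the libraries compared, and edgeR adjusted p was 1 for both.

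Among other genes, those with the smallest p did not pass. On the positive side they were Fbxo17 (2.23 as labelled, SE 0.471, edgeR adjusted p = 0.533), Nacad, Tagln (1.07, SE 0.271, edgeR adjusted p = 0.978) and Id1. Fbxo17, an F-box gene, was at 0.0368, 0.067 and 0.115 CPM in unstimulated macrophages and at 0.368, 0.284 and 0.261 CPM in M15, M19 and M22, which are 1, 2 and 3 counts against 10, 7 and 7. In M23 it was at 0.0669 CPM, inside the unstimulated range. Nacad was listed at 0 in each unstimulated macrophage library and had 4, 9 and 6 counts in M15, M19 and M22, at least 6.69-fold higher with the unstimulated group held at 3 counts over the group. Tagln, the contractile protein gene transgelin, was at 1.07, 0.905 and 1.22 CPM and then at 2.25, 1.62 and 1.98 CPM, with 1.37 CPM in M23. It overlaps Pcsk7 on the opposite strand.

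On the negative side no gene passed, and the genes with the smallest p had few counts in 1 of the cell types. Hoxa7, a homeobox gene, had -1.72 as labelled (SE 0.406, edgeR adjusted p = 0.905). It was at 0.516, 0.637 and 0.689 CPM in unstimulated macrophages, at 0.221, 0.122 and 0.186 CPM in M15, M19 and M22, and at 0.402 CPM in M23, with fibroblasts between 5.49 and 5.97 CPM in both groups. Pknox2, a homeobox gene of the TALE class, had 1, 7 and 3 counts in unstimulated macrophages and 0 in M15, M19, M22 and M23, at least 3.47-fold lower as labelled. Sel1l3 was listed at 0 in unstimulated fibroblasts and had 3, 3 and 2 counts at 2 h, at least 2.56-fold higher, while macrophages stood between 10.9 and 15.5 CPM. The Fc receptor gene Fcgr4 had -1.06 (SE 0.314, edgeR adjusted p = 1) with fibroblasts at 0.225 to 0.256 CPM unstimulated and 0.351 to 0.559 CPM at 2 h. Tnfsf13os (-3.46, SE 1.01), Pik3c2b (-2.95, SE 1.10) and Rab26os (-1.87, SE 0.805) had an edgeR adjusted p of 1, and each overlaps a gene on the opposite strand, as do Hoxa7, Pknox2 and Sel1l3.

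The readings parted in the inflammatory genes. M22 and M23 were singled out on such genes, so this parting follows from that choice and is no separate result. Of 52 NF-kB targets and inflammatory mediators, 37 were positive as labelled with a median of 0.54. Without M22 and M23, 25 were positive with a median of -0.03, and exchanged 28 with a median of 0.01. No member passed edgeR in either tested reading, and 7 and 2 members had an unadjusted p under 0.05. With groups at or under 3 counts held at 3 counts (13 members) the medians were 0.31, -0.03 and -0.03. Socs3, an inhibitor of cytokine signalling, was at 1.29, 1.24 and 1.15 CPM in unstimulated macrophages, at 1.77 and 2.47 CPM in M15 and M19, at 1.44 CPM in M23 and at 60.1 CPM in M22. Its difference was 4.01 as labelled (SE 1.44), 0.67 without the pair (SE 0.358) and 0.50 exchanged (SE 0.336). Tnfsf9, a TNF family ligand gene, went from 3.80 (SE 1.27) to 0.85 (SE 0.402) and 0.90 (SE 0.357), and Nfkbia from 1.30 (SE 0.730) to -0.07 (SE 0.173) and -0.06 (SE 0.154). The adhesion molecule gene Vcam1 had -0.32 (SE 0.194), -0.49 (SE 0.194) and -0.46 (SE 0.181). None of these 4 genes passed in a tested reading (edgeR adjusted p = 1).

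Immediate early genes, which respond first to many stimuli, had a median of 0.09 as labelled with 28 of 38 positive. It was -0.07 without the pair with 15 positive, and -0.06 exchanged with 17 positive. In fibroblasts 36 of 38 were positive at 2 h, with a median of 0.20, and in macrophages 37 were positive as labelled (median 0.37) and 30 without the pair (median 0.10). Over all genes, 54.3% were positive in fibroblasts as labelled, and in macrophages 48% as labelled and 45% without the pair. No member passed. Fos had 0.80 (SE 0.321), 0.45 (SE 0.255) and 0.50 (SE 0.232), with macrophage levels of 101, 90.3 and 91.7 CPM unstimulated, 99.4 and 98.2 CPM in M15 and M19, 110 CPM in M23 and 179 CPM in M22. In fibroblasts Fos had 139, 89 and 110 counts unstimulated and 97, 101 and 71 counts at 2 h, with overlap. Its difference thus also draws on lower fibroblast counts, and M15 and M19 lay inside the unstimulated macrophage range.

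Other lists had 0 members called in either tested reading. The 32 matrix, protease and contractile genes had medians of 0.16, 0.31 and 0.18. Tagln, given above, is among them. The collagen gene Col3a1 (1.33, SE 0.392, edgeR adjusted p = 1) was at 0.332 to 0.459 CPM in unstimulated macrophages and 0.536 to 0.933 CPM in the 4 ImP libraries. The 29 interferon-stimulated genes had medians of 0.05, 0.02 and 0.07, the 19 clock genes 0.06, 0.09 and 0.07, and the 27 genes of cholesterol synthesis and efflux 0.01, 0.06 and 0.10. The 18 scavenger receptor and lipid handling genes, of interest for foam cells, had -0.01, -0.06 and -0.02. Their member Angptl4, an inhibitor of lipoprotein lipase, was at 8.33, 11.2 and 9.84 CPM in unstimulated macrophages and at 6.74, 7.18 and 8.32 CPM in M15, M19 and M22, with 6.33 CPM in M23, and had a difference of -0.50 (SE 0.257, edgeR adjusted p = 1).

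Genes of energy and protein synthesis had small negative values. Of 79 cytosolic ribosomal protein genes, 4 were positive as labelled (median -0.10) and 4 without the pair (median -0.11), and with library totals alone as scaling 23 and 18 were positive (medians -0.04 and -0.04). Of 33 nuclear-encoded oxidative phosphorylation genes, 4 and 6 were positive, with medians of -0.12 and -0.13, and with library totals alone 10 and 8 (medians -0.06 and -0.07). Over all genes, that scaling gave 59.6% and 56.8% positive. No gene of either list passed edgeR. These transcripts are mostly short, and libraries differed in a trend on gene length. The rank correlation of a library's deviation from its cell type's mean with transcript length was -0.30, -0.11 and 0.08 in M13, M17 and M21, 0.07, 0.20 and 0.00 in M15, M19 and M22, and 0.13 in M23, over 12414 genes. In fibroblasts it was -0.02, -0.05 and 0.21 unstimulated and 0.23, 0.31 and 0.23 at 2 h. With that trend removed, the ribosomal medians were -0.05 and -0.06 and the oxidative phosphorylation medians -0.05 and -0.08, and Id3 and Smad6 passed as before. In that fit 11 and 8 of the 79 ribosomal genes and 10 and 8 of the 33 oxidative phosphorylation genes were positive, beside 52% and 49.3% of all genes.

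Nisch, whose product nischarin is a candidate imidazoline receptor, did not differ beyond its error. It was at 402, 376 and 366 CPM in unstimulated macrophages and 397, 408 and 402 CPM in M15, M19 and M22, and at 278, 256 and 279 CPM, then 270, 268 and 293 CPM, in fibroblasts. Its difference was 0.05 as labelled (SE 0.136) and 0.04 without the pair (95% interval -0.27 to 0.35, edgeR adjusted p = 1). The 26 genes of the list that holds it, with mTOR and p38 pathway components, had medians of -0.02, -0.02 and 0.01.

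**Figure D5:**
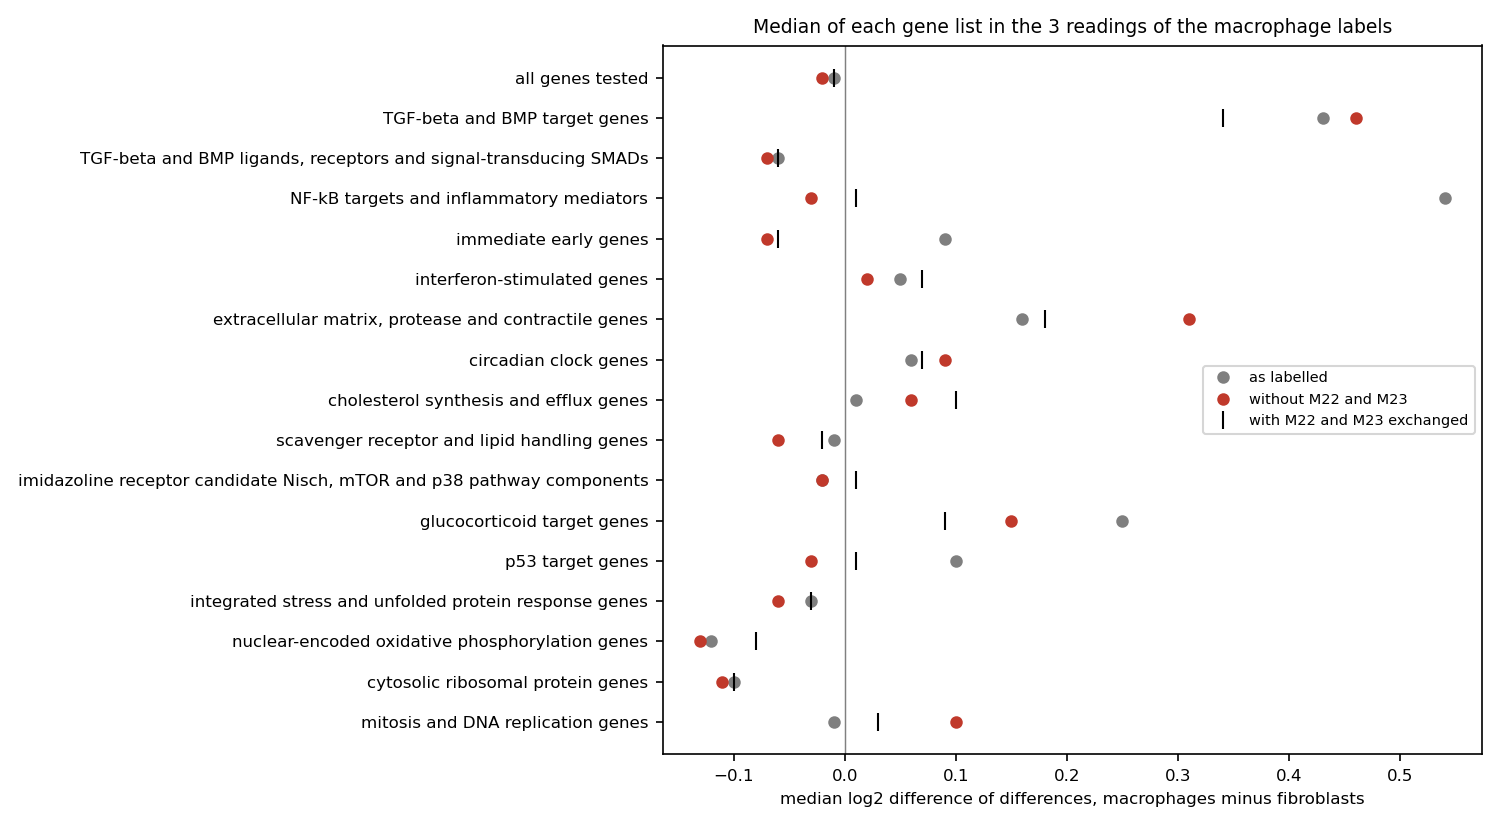
Median log2 difference of differences (x axis) of 16 gene lists and of all genes tested (y axis) in the 3 readings: as labelled (grey), without M22 and M23 (red) and exchanged (black ticks). The target list stays between 0.34 and 0.46, while the NF-kB and inflammatory list goes from 0.54 as labelled to -0.03 without the pair. M22 and M23 were singled out on inflammatory genes, so the shift of the inflammatory list follows from that choice.

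Markers bore out the macrophage label and most of the fibroblast label. All 16 macrophage markers had a mean of at least 10 CPM in macrophages, with sums of 31800 to 34300 CPM unstimulated and 30200 to 31900 CPM in M15, M19, M22 and M23, and 8 of 14 fibroblast markers did in fibroblasts, where 4 were under 1 CPM, among them Thy1 (0.402 to 0.999 CPM in the 6 libraries) and Fap. In macrophages the summed fibroblast markers were at 163 to 209 and 162 to 183 CPM, and in fibroblasts the summed macrophage markers were at 39.3 to 54.2 and 34.2 to 60.2 CPM, unstimulated and with ImP. Summed smooth muscle markers were at 5.13 to 6.93 and 6.36 to 9.10 CPM in macrophages, beside the values of Tagln, itself one of these markers, and their part in those was not tested. Neutrophil and mast cell markers (12.7 to 13.5 and 12.3 to 16 CPM), lymphocyte markers (36.2 to 39.3 and 36.4 to 44.1 CPM) and dendritic cell markers (33.7 to 37.3 and 33.6 to 39.1 CPM) overlapped between macrophage groups. Of these, 5 of 8, 8 of 9 and 6 of 8 markers were under 1 CPM in macrophages. The lymphocyte and dendritic sums came mainly from Cd4 and Itgax. Totals were 28.8 to 36.5 M counts in the 18 macrophage and fibroblast libraries, where 3 counts equal 0.0746 to 0.122 CPM. The TMM factors were 0.839 to 0.873 in macrophages and 1.10 to 1.16 in fibroblasts.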

How the data were processed

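The authors deposited estimated counts, 1 value per gene symbol and library, for 27 libraries. Reads were handled on GRCm38.p6 with STAR, RSEM, cutadapt, FastQC, DESeq2 and R 4.3.2, per the submitters' processing notes, which give no settings and no strand of counting. RSEM being the only counter named, the authors' values were taken as its expected counts, and all were already whole. The tables of each group held the same values in all 680184 cells. No replicate pair held the same counts (lowest chi-squared per degree of freedom 5.89 over 27 pairs). Genes were tested in R 4.3.3 by edgeR 4.0.16 (TMM scaling, a filterByExpr minimum of 10 counts, robust quasi-likelihood F-test, two-sided, Benjamini-Hochberg over all genes tested, threshold 0.05), in 1 model of 9 groups, after tests on simulated data. Errors are edgeR standard errors. Totals are 28.8 to 36.5 M counts in the libraries compared, and the floor of 3 counts covers counting error only. Symbols were matched to GENCODE M21 (98.1%).

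The contrast, the lists and the naming rule were chosen with earlier results of these data known. Named are up to 12 called genes in each direction with a mean of at least 1 CPM, or the 5 with the smallest p where fewer than 5 were called. Up to 4 members of each list with the smallest p without M22 and M23 were eligible, and members of both TGF-beta and BMP lists, Skil, Nisch, Nfkbia, Tnf and Il1b. Predicted genes, Rik genes and pseudogenes were counted and not named, and 1 member of the target list is counted but not reported here. The marker lists for endothelial and epithelial cells were computed and stand in the closing section. The alternatives were DESeq2 1.42.0, limma-voom 3.58.1, 2 other scalings, 2 other filters, 2 smaller sets of libraries, runs of library codes as a block, the length trend removed, a minimum effect, and leaving out each library in turn.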

Additional observations from a re-analysis of the deposited data

Results flagged for a closer look

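The change with ImP differed between macrophages and fibroblasts for 2 genes by the test of the difference itself. Id3 had a log2 difference of 2.58 as labelled and of 2.31 without M22 and M23. Smad6 had 3.53 as labelled and 3.92 without them. The edgeR adjusted p of the difference as labelled was 0.000177 for Id3 and 0.0351 for Smad6. Each gene lay above the unstimulated macrophages in 3 of 3 libraries as labelled, but the share of all genes that did so was not counted.

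The 1 h macrophage libraries are not part of the tested contrast, and both genes were above each unstimulated library there. The mean at 1 h, as labelled, was 63.1 CPM for Id3 (SD 18.1, n = 3) and 3.83 CPM for Smad6 (SD 1.53, n = 3). The unstimulated means were 9.48 and 0.571 CPM. The share of all genes above the unstimulated libraries at 1 h was not counted either.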

How the results depend on the processing

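As labelled, the count of 2 genes became 4 with DESeq2, 1 with limma-voom, 0 with macrophage and fibroblast libraries only, 1 with the 4 groups compared only and 1 with runs of library codes as a block, and was 1 to 2 with a library left out. Without M22 and M23 it became 1 with limma-voom, and was 2 to 3 with a library left out. For macrophages as labelled, 3 genes became 9 with DESeq2 and 5 with the code block (1 to 3 with a library left out, the lowest without M17). For macrophages without the pair, 2 genes became 9 with DESeq2, 7 with macrophage and fibroblast libraries only, 8 with the 4 groups only and 4 with the length trend removed (2 to 5 with a library left out, the highest without M15). For fibroblasts, 0 genes became 5 with DESeq2 and 0 to 1 with a library left out (1 without F33). The exchanged count of 2839 genes past 1, which has no test, became 7231 without a filter on low counts, 590 with a filter at a mean of 1 CPM and 1831 with macrophage and fibroblast libraries only. The cause of these shifts was not tested, beyond the number of genes that each filter keeps. Id3 kept its side of the threshold in 21 of 22 alternatives as labelled (log2 2.31 to 2.75) and in 21 of 21 without the pair. Smad6 did so in 7 of 22 (3.12 to 3.92) and in 20 of 21 (lost with limma-voom, 3.94, adjusted p = 0.193). Over 154 gene results, 3264 of 3281 alternatives stayed on the same side of the threshold, and 48, of genes not called, changed sign. Every change of side was of Id3 or Smad6, so the pooled count mostly reflects genes that were not called in the main fits. The labels give no replicate numbers shared across groups. Runs of library codes, used as the block above, had correlations of deviations of -0.0248, 0.00105 and -0.0117 in macrophages and -0.126, 0.00918 and 0.192 in fibroblasts. Levels near 3 counts limit Nacad, Pknox2, Fbxo17 and Sel1l3.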

Other observations

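The Id genes varied among the fibroblast libraries, which was not tested. F33, F34 and F35, which run in order of library code, had 16.7, 24.1 and 21.2 CPM of Id1, 38.2, 51.2 and 42.4 CPM of Id2 and 67.9, 90.1 and 70.6 CPM of Id3. F26, labelled 1 h, had 8.72, 21.3 and 52.9 CPM of the same genes, and F34, also labelled 1 h, was the highest fibroblast library for each. Skil and Smad7 did not share this order: F34 had 160 and 32 CPM, and F26 had 188 and 39.4 CPM.

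In the libraries labelled aortic endothelial, Id3 was at 746, 709 and 982 CPM unstimulated and at 591, 631 and 669 CPM at 2 h, and Smad6 at 18.4, 17 and 9.82 CPM, then at 16.2, 11.2 and 12.1 CPM.

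Summed endothelial markers were at 238 to 261 CPM in unstimulated macrophages and 238 to 283 CPM with ImP, and at 92.3 to 105 and 112 to 120 CPM in fibroblasts. In macrophages 10 of the 14 markers were under 1 CPM, and the sum came mainly from Vwf (4174, 4955 and 4155 counts in M13, M17 and M21) and Eng. Summed epithelial markers were at most 0.184 CPM in macrophages and 2.04 CPM in fibroblasts.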
